A study of Mus musculus with 18 samples.

Results

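The aminoacyl-tRNA synthetases were taken by gene symbol, as every gene named with an amino acid letter followed by ars, plus Eprs, Farsa and Farsb, with or without a closing 1 or 2. This gave 37 genes of the 32941 in each deposited table, and all 37 were present in all 4 tables. The 17 symbols that end in 2 were counted as mitochondrial and the other 20 as cytosolic. The class is therefore read from the name: Gars and Kars are counted as cytosolic here, although each is known to encode a mitochondrial form of its enzyme as well.

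RNA was sequenced in 18 mouse libraries from work on peroxisomal ether lipids in cortical neurogenesis. Wild-type brain at embryonic days 11, 12, 13, 14, 16 and 18 gave 1 library per stage, although the series' design text speaks of triplicates. Primary neural stem cells gave 2 libraries with a scrambled short hairpin (Scramble, labelled wild type) and 2 with a hairpin against Pex7 (Pex7sh, labelled PEX7-knockdown). The other 8 libraries are labelled brain and form 2 separately tabulated sets, each with 2 wild-type controls and 2 libraries with PLAAT3-PEX11 overexpression: the first set, with groups Ctrl1 and PLA1, and the neuron set, called so after its group names Neuron-ctrl and Neuron-PLA. How the overexpression was driven, the age of the overexpression samples and the way the neurons were obtained are not given in the sources used here. Whether replicates are separate animals or cultures is not said, so a p-value reflects no more than how far these libraries spread, and that spread could be technical.

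Each synthetase joins its amino acid to the matching tRNA, the step that fixes the genetic code before translation. The cytosolic enzymes serve translation of nuclear messages, and several of them are held together with 3 scaffold proteins (Aimp1, Aimp2 and Eef1e1) in the multisynthetase complex. The mitochondrial enzymes are encoded in the nucleus, imported, and serve the few proteins made inside mitochondria. Many cytosolic synthetase genes are known targets of the transcription factor ATF4, which acts when amino acids are short or the integrated stress response is on. The DNA element through which ATF4 and its C/EBP partners act is the amino acid response element.

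Promoter sequences are shown first because a group of cytosolic synthetases rose together in the first set, described below. RefSeq promoters (assembly GRCm38.p6, 250 bases before to 50 bases from the annotated start on) were matched by symbol for 27 of the 37 genes. The unmatched genes included Cars, Hars, Hars2, Lars, Nars, Pars2, Rars, Vars and Wars. The core of the amino acid response element was searched as TGATGNAA on either strand, which reads TTNCATCA on the other. No other motif was searched. The following 5 windows are those of the synthetases with a match, each from 80 bases before the start to 20 bases from the start on, with the match in capitals.
Aars (chr8:111033762-111033861, plus strand): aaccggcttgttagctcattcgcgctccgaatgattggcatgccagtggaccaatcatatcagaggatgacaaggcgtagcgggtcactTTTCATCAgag
Gars (chr6:55037921-55038020, plus strand): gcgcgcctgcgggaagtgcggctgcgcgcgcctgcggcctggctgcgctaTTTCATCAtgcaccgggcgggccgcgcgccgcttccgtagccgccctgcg
Iars (chr13:49682050-49682149, plus strand): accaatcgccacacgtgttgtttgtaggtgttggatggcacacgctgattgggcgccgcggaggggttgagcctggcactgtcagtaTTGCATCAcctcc
Tars (chr15:11399639-11399738, minus strand): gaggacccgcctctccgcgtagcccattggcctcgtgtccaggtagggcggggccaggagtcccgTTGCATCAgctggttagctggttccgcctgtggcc
Yars (chr4:129189823-129189922, plus strand): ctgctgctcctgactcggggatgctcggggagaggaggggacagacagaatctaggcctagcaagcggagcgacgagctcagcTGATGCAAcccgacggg

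Counting the start as base 1, the match lay at bases 10 to 17 in Aars, 8 to 15 in Iars and 4 to 11 in Yars, and from base -30 to -23 in Gars and -15 to -8 in Tars. Aars held a further match from base -112 to -105, outside the window printed. These 5 genes are the alanyl, glycyl, isoleucyl, threonyl and tyrosyl enzymes. All 5 were among the 9 cytosolic genes with a promoter sequence that rose in the first set, and Dars, Eprs, Mars1 and Sars were the other 4. The mitochondrial Aars2 and Tars2, which also rose, hold no match. The cytosolic genes that did not rise and have a promoter sequence were 4, shown for comparison, and none holds the motif.
Farsa (chr8:84856906-84857005, plus strand): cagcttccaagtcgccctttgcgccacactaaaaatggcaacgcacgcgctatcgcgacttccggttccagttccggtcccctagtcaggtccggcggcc
Farsb (chr1:78488878-78488977, minus strand): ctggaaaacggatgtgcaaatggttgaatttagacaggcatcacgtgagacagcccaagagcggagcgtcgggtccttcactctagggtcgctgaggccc
Kars (chr8:112011335-112011434, minus strand): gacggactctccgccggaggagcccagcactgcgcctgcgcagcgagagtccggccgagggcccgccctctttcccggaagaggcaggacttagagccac
Qars (chr9:108507925-108508024, plus strand): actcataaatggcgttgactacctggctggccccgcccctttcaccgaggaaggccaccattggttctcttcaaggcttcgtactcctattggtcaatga

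A match was thus found in 5 of 13 cytosolic promoters and in 0 of 14 mitochondrial ones. Over all 32851 RefSeq promoter windows of this length 3.97% hold the motif, and over the 27025 genes 4.51%. Of 25 genes on a list of ATF4 and amino acid response genes, 7 hold it. A match is a description of the letters and does not show that a factor binds there. A window without one says nothing about binding elsewhere in the gene. Cars, Lars, Nars and Vars rose but had no promoter sequence to search, and only 4 cytosolic genes that did not rise had one. Whether the motif goes with the rise, or whether ATF4 caused it, was not tested.

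Levels are given in RPKM, reads per kilobase of exon scaled to library size. In the deposited tables the cytosolic synthetases were the more abundant class in every library. The median over the 20 cytosolic genes was 3.85 to 14.3 times the median over the 17 mitochondrial genes. The lowest ratio was at embryonic day 11 (27.4 against 7.10 RPKM), and the highest was in a PLA1 library (68.2 against 4.76 RPKM). Gars, the glycyl enzyme, was the highest cytosolic member in all stage and stem cell libraries, at 55.1 to 69.8 RPKM in the stages and 90.8 to 99.9 RPKM in the stem cells. Kars, the lysyl enzyme, was highest in both Ctrl1 libraries, at 140.5 and 129.5 RPKM.

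The 14 amino acids that have a cytosolic and a mitochondrial gene under the same letter allow a direct comparison. In 13 of these 14 pairs the cytosolic gene was higher in all 18 libraries. Hars and Hars2, which share 195 exon bases on opposite strands, were among them. The exception was the leucyl pair, in which Lars exceeded Lars2 in 15 of 18 libraries and the ratio ran from 0.760 to 12.4. The smallest constant lead was that of Tars over Tars2, with a median ratio of 1.83. The widest was that of Wars over Wars2, the tryptophanyl pair, with a median ratio of 24.2.

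**Figure D1:**
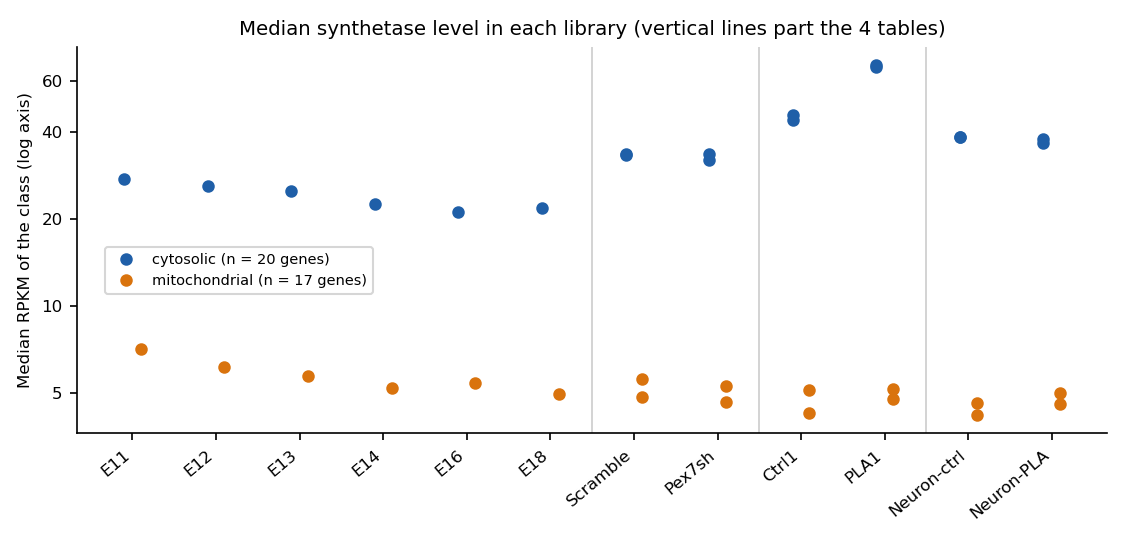
Median RPKM over the 20 cytosolic (blue) and the 17 mitochondrial (orange) synthetases in each of the 18 libraries, on a log axis, with 1 point per library and vertical lines between the 4 tables. The cytosolic points rise from 43.8 and 45.6 RPKM in Ctrl1 to 68.2 and 66.8 RPKM in PLA1, while the mitochondrial points stay between 4.19 and 7.10 RPKM throughout. Levels are compared within a table.

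Depth followed the same order. The libraries rest on 16147911 to 28104927 reads in the perturbation sets and 41501880 to 54373317 in the stages. In the perturbation libraries the median cytosolic gene held 2790 to 5614 recovered reads and the median mitochondrial gene 474 to 698. The standard error of a log2 change was accordingly larger for the mitochondrial class, with a median of 0.15 against 0.08 in the first set. Small changes of a mitochondrial gene were therefore less detectable. Plaat3 followed the labels: it stood at 0.413 and 0.431 RPKM in Ctrl1 against 31.4 and 29.1 in PLA1, and at 0.0699 and 0.230 in Neuron-ctrl against 19.0 and 20.8 in Neuron-PLA. Pex7, the knocked-down gene, had 1.19 and 1.22 RPKM with the scrambled hairpin against 0.5004 and 0.669 in Pex7sh.

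The first set asked what changes when PLAAT3-PEX11 is overexpressed. Of the 20 cytosolic synthetases, 13 rose, none fell and 7 did not pass the test, which was limma on log2(RPKM + 1) with Benjamini-Hochberg adjusted p under 0.05 over 11623 genes. Over all genes tested 16.3% rose and 13.2% fell in this comparison (1900 and 1538 genes, together 29.6%). Rescaling the libraries changed that split to 1571 and 1762 with median ratios and to 970 and 2947 with upper quartiles, which moved the median of all genes from 0.06 to -0.13, while 12 and 11 cytosolic synthetases still rose. The median log2 change of the cytosolic class was 0.56, against 0.06 over all genes tested. Of the 17 mitochondrial synthetases 2 rose and none fell, a share near the background, with a median of 0.19. With upper quartile scaling the class medians were 0.34 and 0.01.

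Cars, which charges cysteine (chromosome 7, 143557230 to 143600090, minus strand, mm10), had the largest change. The Ctrl1 libraries held 12.0 and 14.8 RPKM, and the PLA1 libraries 27.6 and 32.2, for a log2 change of 1.10 (SE 0.13, limma adjusted p = 0.00145). Iars, which charges isoleucine (chromosome 13, 49682100 to 49734267, plus strand), stood at 33.0 and 34.9 RPKM against 71.0 and 63.1 RPKM, a log2 change of 0.96 (SE 0.09, limma adjusted p = 0.000656). Both PLA1 libraries lay above both controls for each of these genes.

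Lars, the leucyl enzyme (chromosome 18, 42202298 to 42262194, minus strand), also takes part in leucine sensing upstream of mTORC1. It was measured at 38.4 and 41.1 RPKM in Ctrl1. The PLA1 libraries held 75.04 and 73.3, for a log2 change of 0.88 (SE 0.08, limma adjusted p = 0.00055). Mars1, the methionyl enzyme that charges both initiator and elongator tRNA (chromosome 10, 127296221 to 127311786, minus strand), was measured at 53.7 and 56.2 RPKM against 99.7 and 93.6 RPKM. Its log2 change was 0.80 (SE 0.08, limma adjusted p = 0.000686). The groups did not overlap for either gene. Mars1 shares 68 exon bases with Ddit3 on the opposite strand, 1.99% of its exon length, and whether the counting used strand is not given in the sources used here.

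Tars, which charges threonine (chromosome 15, 11382301 to 11399665, minus strand), was measured at 25.4 and 26.7 RPKM against 46.3 and 43.3 RPKM, a log2 change of 0.76 (SE 0.08, limma adjusted p = 0.00127). Nars, which charges asparagine (chromosome 18, 64499647 to 64516652, minus strand), was measured at 56.5 and 64.1 RPKM against 102.5 and 101.9 RPKM, a log2 change of 0.75 (SE 0.08, limma adjusted p = 0.00125). Again no control library reached a PLA1 library. The other 7 cytosolic genes that rose were Aars (log2 change 0.72), Eprs (0.69), Vars (0.64), Gars (0.57), Yars (0.56), Sars (0.36) and Dars (0.30). Aars shares 15.1% of its exon bases with Exosc6 on the same strand and Gm24103 on the opposite strand together. How reads in the shared bases were counted is not given in the sources used here, so the Aars value may be affected in either direction. Dars lost its call when any of the 4 libraries was left out, with no filter and with either rescaling. Sars lost it with upper quartile scaling and without Ctrl1 library 1 or Ctrl1 library 2, and Vars with no filter.

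The 7 cytosolic genes that did not pass had log2 changes from -0.04 to 0.12. They were Farsa and Farsb, which form the 2 subunits of the phenylalanyl enzyme, Hars, Kars, Qars, Rars and Wars. Hars, the histidyl enzyme, had the lowest value of the class, with 29.1 and 29.0 RPKM in the controls against 27.3 and 29.1. Kars stood at 140.5 and 129.5 RPKM against 137.8 and 126.0 RPKM, and Rars, the arginyl enzyme, at 96.6 and 94.7 against 104.3 and 94.9 RPKM. The libraries of the groups overlapped for 6 of these 7 genes, Farsb being the other. Their standard errors ran from 0.07 (Wars) to 0.11 (Qars), and those of the 13 genes that rose from 0.07 (Gars) to 0.13 (Cars).

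In the mitochondrial class the genes that passed were Aars2 and Tars2. Aars2 (chromosome 17, 45506841 to 45520843, plus strand) held 6.38 and 7.34 RPKM in the controls and 9.86 and 9.36 with overexpression, for a log2 change of 0.44 (SE 0.12, limma adjusted p = 0.0345). Tars2 (chromosome 3, 95739976 to 95760206, minus strand) held 14.4 and 13.9 RPKM against 19.8 and 17.6 RPKM, a log2 change of 0.38 (SE 0.10, limma adjusted p = 0.0314). Both calls were lost when libraries were rescaled by median ratio or upper quartile, when no filter on low values was used, and without Ctrl1 library 1, Ctrl1 library 2 or PLA1 library 1. The Aars2 call was also lost without PLA1 library 2.

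Ears2, whose product is used to make both glutamyl and glutaminyl tRNA in mitochondria, was just outside the threshold. It stood at 3.53 and 3.16 RPKM against 4.76 and 4.98 RPKM (log2 change 0.43, SE 0.14, limma adjusted p = 0.0528), and it passed with a pseudocount of 0.1, with limma-voom and with the replicate block. Iars2 went furthest the other way, at 2.28 and 2.198 RPKM against 1.77 and 1.78 RPKM (log2 change -0.22), and did not pass (limma adjusted p = 0.321). Iars2 shares 24.2% of its exon bases with genes on the opposite strand. Higher values in both PLA1 libraries than in both controls were found for 14 of 20 cytosolic and 10 of 17 mitochondrial genes, against 39.6% of all genes tested. Lower values in both were found for Iars2 alone, against 29.7% of all genes and 69.3% in either direction. Set against its cytosolic partner, the mitochondrial gene had the smaller log2 change in 11 of the 14 pairs. The histidyl, arginyl and tryptophanyl pairs were the other 3.

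**Figure D2:**
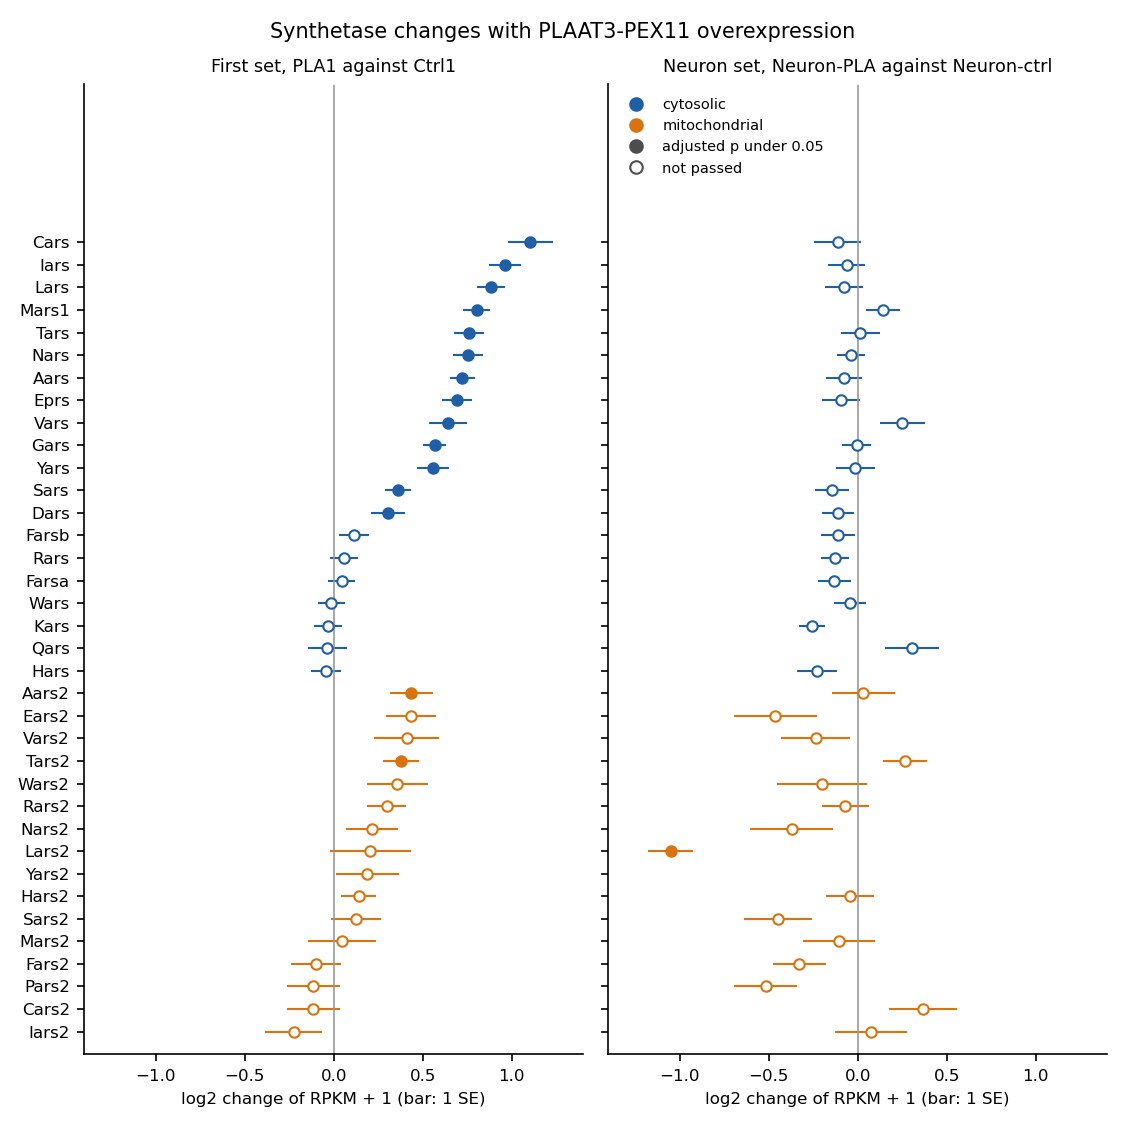
Log2 change (PLA1 against Ctrl1, left; Neuron-PLA against Neuron-ctrl, right) of the synthetases shown, on the log2(RPKM + 1) scale, with a bar of 1 SE; filled points passed an adjusted p of 0.05. On the left 13 filled cytosolic points (blue) run from 0.30 to 1.10 above 7 open ones near 0, and on the right only Lars2, at -1.05, is filled; Yars2 was not tested there.

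Other genes of charging and translation did not move as the cytosolic class did. None of the 3 scaffold genes of the multisynthetase complex passed (median -0.23), and the members of that complex did not stand apart from the other cytosolic enzymes: 5 of 8 rose, against 8 of 12. The division into complex members and others was made after the values had been seen. Of 6 cytosolic elongation factors 3 fell and none rose, where 13.2% of all genes tested fell and 16.3% rose. None of 12 mitochondrial translation factors passed. Of 4 mitochondrial tRNA amidation and formylation genes 1 rose, Qrsl1 (log2 change 0.80), and of 13 mitochondrial tRNA maturation genes Pus1 rose (0.64) and Hsd17b10 fell (-0.30). The mitochondrially encoded mRNAs, which the mitochondrial synthetases serve, fell in 10 of 12 cases with a median of -1.06.

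The list of ATF4 and amino acid response genes, which holds no synthetase, rose in 27 of 30 tested members, against 16.3% of all genes tested. It fell in none, with a median of 1.06. The list was chosen with earlier results of these data known, so this count is not independent of them. Among its members, the asparagine synthetase Asns held 86.5 and 91.7 RPKM in the controls and 279.1 and 306.9 with overexpression. Trib3, an ATF4 target that dampens the same response, stood at 9.57 and 9.19 RPKM against 50.4 and 48.4 RPKM. Atf4 itself stood at 125.0 and 115.3 RPKM against 219.7 and 192.2 RPKM. The PLA1 libraries were the higher for all of these.

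Marker lists moved with the same libraries, where 16.3% of all genes tested rose and 13.2% fell. The summed level of 10 proliferation markers was 389 to 400 RPKM in Ctrl1 and 654 to 655 RPKM in PLA1, and all 10 rose. That of 10 neuron markers was 673 to 698 RPKM against 327 to 342 RPKM, with 6 lower. That of 8 microglia markers was 430 to 462 RPKM against 187 to 202 RPKM, with all 8 lower. In bulk samples fewer cells of a type and less RNA per cell cannot be told apart, and the part of these shifts in the synthetase changes was not tested. No listed marker of these 3 types was at 0 in every library of a group.

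**Figure D3:**
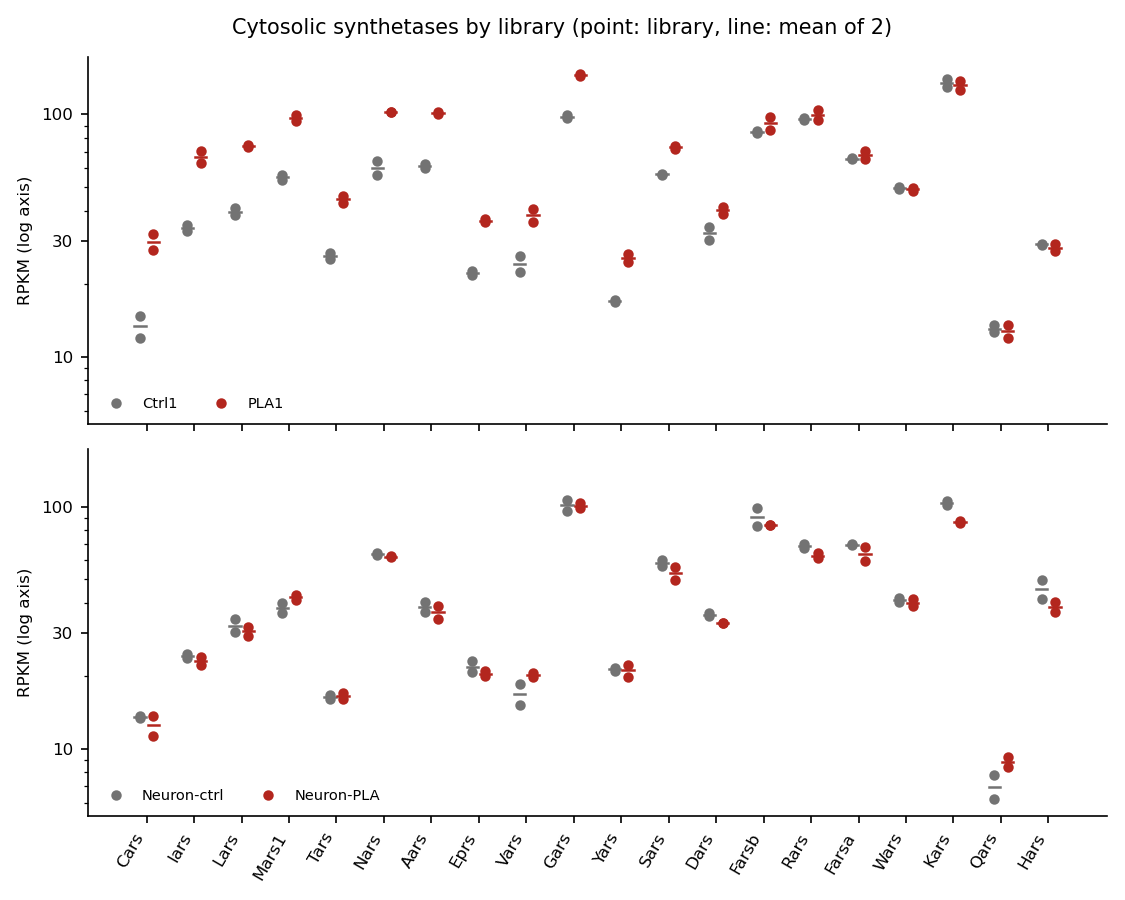
RPKM of the 20 cytosolic synthetases on a log axis in the first set (top, Ctrl1 grey, PLA1 red) and the neuron set (bottom, Neuron-ctrl grey, Neuron-PLA red), with 1 point per library and a line at the mean of 2, ordered by the change in the first set. From Cars to Dars the red points of the top panel lie above the grey ones, as from 12.0 and 14.8 to 27.6 and 32.2 RPKM for Cars, and those of the bottom panel lie close to the grey ones.

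The neuron set asked the same question in other libraries, whose 10 neuron markers summed to 1618 to 1632 RPKM in Neuron-ctrl. No cytosolic synthetase passed there and 1 mitochondrial synthetase fell, among 20 and 16 tested, and 0.877% of all 11179 genes tested passed in either direction, with 0.501% falling. Yars2 was not tested because its mean was under 1 RPKM. The class medians were -0.08 and -0.15, against 0.00 over all genes. Before adjustment, 1 cytosolic and 2 mitochondrial genes had a limma p under 0.05, and limma-voom on recovered reads called the same single gene.

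That gene was Lars2, the mitochondrial leucyl enzyme (chromosome 9, 123366927 to 123462666, plus strand). It stood at 23.0 and 22.4 RPKM in Neuron-ctrl and at 9.56 and 11.4 RPKM in Neuron-PLA, a log2 change of -1.05 (SE 0.13, limma adjusted p = 0.0219). The groups did not overlap, but the call was lost with no filter and when Neuron-ctrl library 1 or 2 or Neuron-PLA library 1 was left out. Lars2 was also among the more variable members elsewhere, at 6.03 and 10.6 RPKM in the 2 PLA1 libraries. The ribosomal RNA gene Rn18s is a measure of how much ribosomal RNA entered a library. It stood at 1824 and 1605 RPKM in Neuron-ctrl and 1253 and 1349 in Neuron-PLA. In the first set Rn18s stood at 5518 and 3738 RPKM in Ctrl1 and at 3990 and 4053 in PLA1. Lars2 stood at 7.38 and 6.33 RPKM in those Ctrl1 libraries. In wild-type brain Rn18s stood at 1374 RPKM at day 11 and at 1032 to 1451 later, and Lars2 at 28.6 and at 11.8 to 16.7. The part of Rn18s in the Lars2 values was not tested.

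The members next to it by p did not pass. Kars stood at 105.8 and 101.0 RPKM in Neuron-ctrl against 86.9 and 85.7 RPKM in Neuron-PLA (log2 change -0.26, SE 0.07, limma adjusted p = 0.137). Pars2, the mitochondrial prolyl enzyme, stood at 9.06 and 12.2 against 6.32 and 7.85 RPKM (log2 change -0.52, limma adjusted p = 0.197). Sars2 stood at 2.93 and 3.63 against 2.24 and 2.02 RPKM (log2 change -0.45, limma adjusted p = 0.283). All 3 were lower in both Neuron-PLA libraries.

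Hars stood at 41.7 and 49.6 RPKM against 36.8 and 40.5 RPKM (log2 change -0.23, limma adjusted p = 0.337). The largest positive values were those of Cars2, at 4.19 and 2.89 against 4.59 and 5.01 RPKM (log2 change 0.37), and of Qars, the glutaminyl enzyme, at 7.77 and 6.20 against 9.23 and 8.42 RPKM (log2 change 0.30). Neither passed. Non-overlapping libraries were found for 10 of 20 cytosolic and 11 of 17 mitochondrial genes, against 50% of all genes tested in either direction.

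Of 26 tested ATF4 and amino acid response genes none rose and 1 fell, against 0.376% and 0.501% of all genes tested. The gene that fell was Phgdh, the entry enzyme of serine synthesis. The summed level of the list was 518 to 535 RPKM in Neuron-ctrl and 478 to 479 RPKM in Neuron-PLA. Summed levels of some cell type marker lists were lower with overexpression in this set as well. Radial glia markers summed to 313 to 324 RPKM against 169 to 205 RPKM, microglia markers to 127 to 130 against 71.9 to 81.6 RPKM, and endothelial markers to 19.5 to 20.1 against 1.29 to 1.70 RPKM, with Cdh5 and Tek at 0 in both Neuron-PLA libraries. Most members of the first 2 lists did not pass: 2 of 7 tested radial glia and 2 of 8 tested microglia markers were called lower. Only 1 endothelial marker was tested, and it was called lower. Over all genes tested the share called lower was 0.501%. The part of these shifts in the synthetase values was not tested.

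Whether the overexpression effect differed between the sets was tested as the interaction of set and treatment, neuron set minus first set. A negative value means a lower log2 change in the neuron set than in the first set, which can be a smaller rise or a fall. For Lars2 the log2 change was 0.21 in the first set and -1.05 in the neuron set. The interaction was negative and passed in 11 of 20 cytosolic and 1 of 17 mitochondrial synthetases. Of 11705 genes tested, 6.19% had a negative and 5.48% a positive called difference (725 and 642 genes). With upper quartile scaling that split became 397 and 1282, and 7 cytosolic synthetases passed. The median difference was -0.54 for the cytosolic and -0.37 for the mitochondrial class, against -0.04 over all genes. With upper quartile scaling these were -0.30, -0.15 and 0.17. Cars differed by -1.22 (SE 0.19, limma adjusted p = 0.00392), Iars by -1.02 (SE 0.13, limma adjusted p = 0.00139) and Lars by -0.96 (SE 0.13, limma adjusted p = 0.00174). The other 8 were Aars, Nars, Eprs, Tars, Mars1, Yars, Gars and Sars.

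All 11 had risen in the first set, and of the 13 that rose there only Dars (limma adjusted p = 0.0636) and Vars (limma adjusted p = 0.176) did not pass. The interaction uses the same Ctrl1 and PLA1 libraries, so this overlap is in part built in and is no separate evidence. Lars2 was the mitochondrial gene that passed, at -1.26 (SE 0.29, limma adjusted p = 0.0226). It lost this call with no filter and without Ctrl1 library 1, Ctrl1 library 2, Neuron-ctrl library 1, Neuron-ctrl library 2 or Neuron-PLA library 1. Ears2 (-0.90, limma adjusted p = 0.0619) and Sars2 (-0.57, limma adjusted p = 0.126) did not. The largest differences in the other direction were 0.34 for Qars and 0.48 for Cars2, neither of which passed. On the list of ATF4 and amino acid response genes 25 of 28 had a negative called difference and none a positive one. The shares over all genes tested were 6.19% and 5.48%. The sets were tabulated separately, and set cannot be told apart from any difference in how their samples were prepared.

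In neural stem cells with Pex7 knockdown no synthetase passed, and 0% of the 12482 genes tested did. Pex7 itself was not among them, because its mean was under 1 RPKM. With 2 libraries per group, and scramble libraries that differed from each other as given below, the lack of calls does not show that nothing changed. At an unadjusted p under 0.05 limma gave 184 genes, 1 of them a synthetase, and limma-voom gave 116 with none passing adjustment. The medians were -0.01 for the cytosolic and -0.02 for the mitochondrial class, against 0.00 over all genes. The member of smallest p was Farsb, at 26.3 and 26.1 RPKM in the scramble libraries and 29.4 and 30.1 RPKM in Pex7sh, a log2 change of 0.18 (SE 0.07, limma adjusted p = 0.9998). In the mitochondrial class it was Lars2, at 14.5 and 12.2 RPKM against 18.3 and 15.4 RPKM (log2 change 0.31, SE 0.12, limma adjusted p = 0.9998). Rn18s stood at 2034 and 2012 against 3133 and 2572 RPKM here, and its part in the Lars2 value was not tested.

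Wars2 stood at 3.48 and 3.15 RPKM against 2.52 and 2.78 RPKM (log2 change -0.24), and Iars at 45.4 and 43.2 against 40.2 and 40.8 RPKM (log2 change -0.13). Yars2 stood at 6.16 and 5.55 against 5.54 and 4.85 RPKM (log2 change -0.15) and Sars at 48.6 and 53.2 against 54.3 and 54.1 RPKM (log2 change 0.09). In each of these 4 genes both Pex7sh libraries lay on the same side of both scramble libraries. Non-overlap in either direction was found for 8 of 20 cytosolic and 5 of 17 mitochondrial genes, against 22.5% of all genes tested. The scramble libraries themselves differed, with proliferation markers summing to 195 and 334 RPKM, and in 15 of 17 mitochondrial genes scramble library 1 was the higher, by a median of 0.11 on the log2 scale. 

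Across wild-type brain from embryonic day 11 to 18 the 8 cytosolic synthetases of the multisynthetase complex fell, while 11 of the 12 other cytosolic members did not pass the test. The slope on embryonic day was negative and passed the test in 9 of 20 cytosolic and 4 of 17 mitochondrial genes, and positive in none, where 25.5% of 12921 genes tested had a called negative slope and 19.6% a positive one (45.1% in all). The mitochondrial share is near this background, but the median mitochondrial slope was -0.05 log2 units per day. Called or not, 15 of 17 mitochondrial and 16 of 20 cytosolic slopes were negative, against 7311 of 12921 over all genes. All 8 synthetases of the complex (Dars, Eprs, Iars, Kars, Lars, Mars1, Qars and Rars) were among the 9, against 1 of the 12 others, Tars. The median slope was -0.11 log2 units per day in the complex and -0.02 in the other cytosolic genes, against -0.02 over all genes. These groups were compared after the values had been seen, and the difference between them was not tested.

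Within the complex, Iars had the steepest slope, at 22.9, 22.7, 19.0, 17.2, 14.5 and 11.3 RPKM from the youngest to the oldest stage (-0.14 per day, SE 0.02, limma adjusted p = 0.00162). Dars, the aspartyl enzyme, ran through 19.99, 17.9, 15.8, 13.98, 14.3 and 9.03 RPKM (-0.13 per day, SE 0.02, limma adjusted p = 0.00483). Iars fell at each step, and Dars at each but that from day 14 to day 16. They ended at 0.495 and 0.452 of their level at day 11.

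Qars ran through 21.02, 17.9, 17.6, 17.9, 13.7 and 11.4 RPKM (-0.11 per day, SE 0.02, limma adjusted p = 0.00513). Rars, bound in the complex next to Qars, ran through 32.2, 26.1, 24.6, 22.5, 19.1 and 17.9 RPKM (-0.11 per day, SE 0.02, limma adjusted p = 0.0057). Kars ran through 56.1, 40.3, 35.5, 38.5, 31.2 and 30.4 RPKM (-0.10 per day, SE 0.03, limma adjusted p = 0.024). In Kars the largest step was that from day 11 to day 12, while Qars lost most after day 14.

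Lars, Mars1 and Eprs, the 3 other complex members, stood at 0.576, 0.603 and 0.651 of their day 11 level at day 18. The scaffold genes Aimp1, Aimp2 and Eef1e1 did not follow: none of the 3 passed, with slopes from -0.03 to -0.01 per day. The slope of all 8 complex members was negative under each rescaling and with each stage left out, but the number that passed fell to 4 with upper quartile scaling, to 4 without day 11, to 5 without day 12, to 4 without day 16 and to 2 without day 18.

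Tars, outside the complex, fell at every step, through 17.3, 14.8, 13.1, 11.2, 9.95 and 8.87 RPKM (-0.12 per day, SE 0.02, limma adjusted p = 0.00347). It kept its call under every rescaling and with each stage left out. The remaining 11 cytosolic genes stood at 0.819 to 1.12 of their day 11 level at day 18. Hars was the highest of these, at 32.7 RPKM at day 11 and 36.6 RPKM at day 18, and Sars, the seryl enzyme, stayed within 46.6 to 53.4 RPKM.

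**Figure D4:**
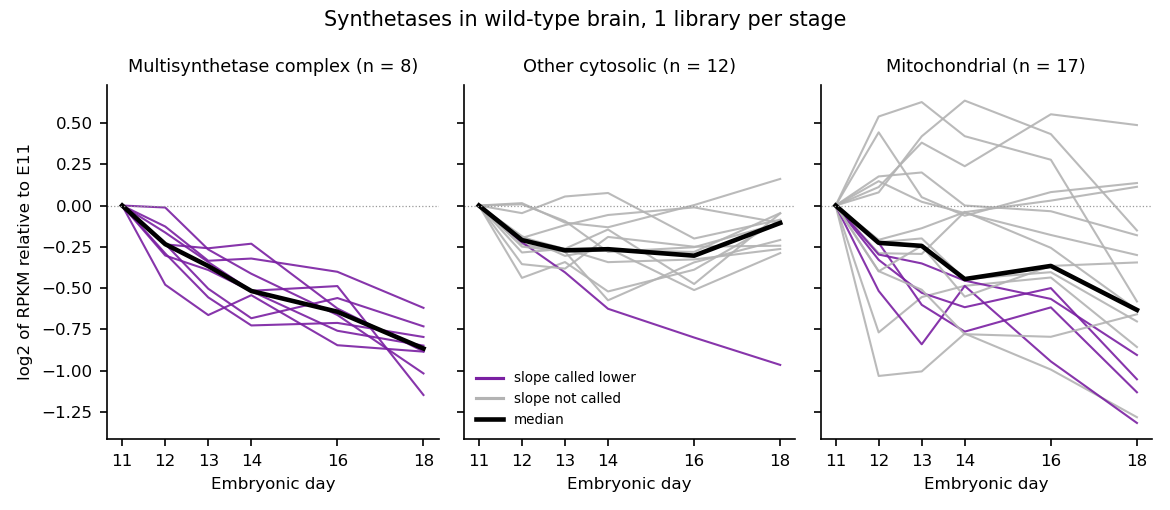
Log2 of RPKM relative to embryonic day 11 in wild-type brain, with 1 library per stage, for the 8 synthetases of the multisynthetase complex, the 12 other cytosolic and the 17 mitochondrial synthetases; thin lines are genes (purple where the slope was called lower), the thick line is the median. All 8 lines of the left panel fall, while 11 of 12 in the middle panel end between 0.819 and 1.12 of the day 11 level.

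Among mitochondrial synthetases the genes whose slope was negative and passed included Sars2, Rars2 and Ears2. Sars2 (chromosome 7, 28741992 to 28753871, plus strand) ran through 12.3, 8.60, 6.88, 8.79, 6.40 and 4.95 RPKM (-0.14 per day, SE 0.03, limma adjusted p = 0.012), the lowest share of the day 11 level of any member at 0.402. Rars2 ran through 14.1, 11.5, 11.1, 10.3, 9.53 and 7.53 RPKM (-0.10 per day, SE 0.02, limma adjusted p = 0.00709). Of these, Rars2 fell at every step.

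Ears2 ran through 3.27, 2.79, 2.15, 1.92, 2.13 and 1.49 RPKM (-0.09 per day, SE 0.03, limma adjusted p = 0.0266). It was lowest at day 18. None of these 3 passed without day 18, and Ears2 also lost its call with no filter, without day 11 and without day 12. Lars2 stood at 28.6 RPKM at day 11 and at 11.8 to 16.7 RPKM at the later stages, and its slope did not pass (limma adjusted p = 0.0872). Cars2 went furthest the other way, from 3.78 RPKM at day 11 to 5.54 at day 16 and 5.29 at day 18. Its slope of 0.06 did not pass (limma adjusted p = 0.0726), and it was called higher once libraries were rescaled by median ratio or upper quartile.

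Day 11 was the highest stage in 17 of 20 cytosolic and 10 of 17 mitochondrial genes, against 32.4% of all genes tested. Day 18 was the lowest in 9 of 20 and 12 of 17, against 43.2%. The median ratio of day 18 to day 11 was 0.826 in the cytosolic and 0.645 in the mitochondrial class, and 0.893 over all genes. From day 14 to day 18 the medians were 0.965 and 0.775. Proliferation markers summed to 641 RPKM at day 11 and 48.8 RPKM at day 18, neuron markers to 971 and 2788 RPKM, and erythroid markers to 6188 and 253 RPKM; their part in the synthetase slopes was not tested. On the list of ATF4 and amino acid response genes 11 of 26 had a called negative slope and 4 a positive one. The shares over all genes tested were 25.5% and 19.6%.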

How the data were processed

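Gene expression was measured by RNA sequencing of total RNA in 18 libraries. The submitters' processing notes name STAR 2.7.9a, HTSeq 0.6.0 and the mm10 build. RPKM values were computed by the authors and deposited in 4 tables. No header names this unit. It was taken from the values, since RPKM times the merged exon length (GENCODE M21) times a read total gave whole reads, within 0.01, for 97.5% to 97.8% of nonzero values, over 31976 genes with a length. All sample columns were used. Groups follow the sample titles.

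Tests used limma 3.58.1 (R 4.3.3) on log2(RPKM + 1), with eBayes fitting a trend of variance on level. Genes whose mean reached 1 RPKM were tested, and an adjusted p under 0.05 over all of them counted as passing. Fold changes are on this scale, so those of weakly expressed genes come out too small. Each treated pair was fitted against its controls in its own table. The stages were fitted as a slope on embryonic day, and the interaction used both overexpression sets. The fits were tested on simulated data. Alternatives were a pseudocount of 0.1, no filter, median ratio and upper quartile scaling, limma-voom on the recovered reads, a replicate block, and each library left out. Values per library are printed for the called members of largest change, for members of smallest p where few passed, and for the member furthest against its class. The members and lists were chosen with earlier results of these data known. Some values are not reported here.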

Additional observations from a re-analysis of the deposited data

Results flagged for a closer look

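The effect of PLAAT3-PEX11 overexpression differed between the neuron set and the first set in 12 synthetases, by the interaction test of limma (adjusted p under 0.05 over 11705 genes). The differences, neuron set minus first set on the log2 scale, were -1.22 for Cars, -1.02 for Iars, -0.96 for Lars, -0.80 for Aars, -0.79 for Nars, -0.79 for Eprs and -0.74 for Tars. They were -0.66 for Mars1, -0.57 for Yars, -0.57 for Gars and -0.50 for Sars. These 11 are cytosolic and had risen in the first set, whose libraries the interaction also uses. Sars and Yars lost this call with upper quartile scaling and in most fits that left out a library, and Mars1 and Gars with upper quartile scaling. The mitochondrial Lars2 differed by -1.26. It lost the call with no filter and without Ctrl1 library 1, Ctrl1 library 2, Neuron-ctrl library 1, Neuron-ctrl library 2 or Neuron-PLA library 1. In Lars2 the called change was the fall in the neuron set, and its first-set values were the most spread of the class.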

How the results depend on the processing

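No called synthetase reversed direction under any alternative, while first-set values near 0 of members that did not pass changed sign under some. In the first set the number of cytosolic genes that rose stayed between 11 and 13, also with single libraries left out (11 to 12). The number of mitochondrial genes that rose was 0 with no filter, with median ratio scaling and with upper quartile scaling, 3 with a pseudocount of 0.1 and with limma-voom (Aars2, Ears2 and Tars2), and 0 to 1 with single libraries left out (0 without Ctrl1 library 1 or 2, 1 without PLA1 library 1, where it was Lars2, or library 2). In the neuron set the 1 called gene became 0 with no filter and 0 to 1 with single libraries left out, while the calls over all genes, 98, were 49 with upper quartiles, 339 with limma-voom, 0 with no filter and 7 to 163 with single libraries left out. For the interaction, 7 cytosolic genes passed with upper quartile scaling and 9 to 11 with single libraries left out. The mitochondrial count was 0 with no filter, 2 with limma-voom (Ears2 and Lars2) and 0 to 1 with single libraries left out (0 without Ctrl1 library 1 or 2, Neuron-ctrl library 2 or Neuron-PLA library 1; without Neuron-ctrl library 1 the gene was Ears2, so Lars2 was lost there too).

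For the slope, upper quartile scaling left 5 cytosolic genes, 4 of them in the complex, and no filter left 2 mitochondrial genes. Leaving out single stages gave 3 to 9 cytosolic genes (5 without day 11, 5 without day 16, 3 without day 18), 2 to 8 complex members and 0 to 4 mitochondrial genes (2 without day 11, 0 without day 18). Over all genes the first-set calls, 3438, were 1177 with no filter and 1575 to 3294 with single libraries left out (1575 without Ctrl1 library 1 and 2048 without PLA1 library 2). The interaction calls, 1367, were 761 with no filter and 636 to 1218 with single libraries left out, and the slope calls, 5828, were 2537 without day 18. Where leaving out a library left a group with 1 sample, that sample is assumed to vary like the others. The cause of these changes was not tested.

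Replicate numbers are shared between groups, but only as numbers, in 2 pairs per comparison. Deviations of same-numbered libraries correlated at 0.063 in the knockdown, 0.197 in the first set and 0.046 in the neuron set. With the replicate block 13 cytosolic and 3 mitochondrial synthetases rose in the first set, 1 passed in the neuron set, 0 in the knockdown, and 11 cytosolic and 1 mitochondrial passed in the interaction. Over all genes the block gave 4297 calls in the first set, 54 in the neuron set and 1 in the knockdown.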
